A study of Mus musculus with 6 samples.

Results

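The genes described here are 10 members of the machinery that carries a cell through G1 into S phase, namely the D-type cyclins Ccnd1, Ccnd2 and Ccnd3, the E-type cyclins Ccne1 and Ccne2, the cyclin-dependent kinases (CDKs) Cdk2, Cdk4 and Cdk6, the retinoblastoma gene Rb1 and the transcription factor gene E2f1. They were taken by name, and each was read from the array probes whose RefSeq accession belongs to it, without reference to how it moved. These accessions matched 14 probes, of which 13 passed a filter on dim signal, and 9 of the 10 members could be tested, out of 16514 genes tested in all. The member left out of the test was Cdk6, whose single probe stood well above background on none of the 6 arrays. Of the 10 members, 7 had 1 probe and 3 had several.

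The D-type cyclins are made in answer to growth signals and bind the kinases Cdk4 and Cdk6, which phosphorylate the Rb protein. Phosphorylated Rb lets go of E2F factors, which then turn on genes for DNA replication and for the E-type cyclins, and these bind Cdk2 and phosphorylate Rb further. Rb1 is a classical tumour suppressor gene, and extra copies of the D-cyclin or CDK genes occur in a part of human neuroblastomas.

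RNA came from neuro2a (N2a) cells, a line grown from a mouse neuroblastoma, and was hybridised to 6 single-colour Agilent arrays. The 3 control arrays held RNA of cells transfected with an empty RNAi vector, and the 3 knockdown arrays held RNA of cells transfected with miR RNAi vectors for both NF-YA and NF-YC. These are subunits of NF-Y, a trimeric factor that binds CCAAT boxes near transcription starts. The comparison asks how the G1 genes stood after NF-Y was reduced. None of the 6 arrays held RNA of cells given a non-targeting miR vector. Effects of expressing miR RNAi, or of its off-target action, therefore cannot be told apart from those of reduced NF-Y. The vectors were introduced by transient transfection into 1 cell line and no sorting of transfected cells was described for these arrays, so each value is an average over cells that did and did not take up a vector. In such bulk RNA, a smaller share of cells in a given cell cycle phase and less RNA per cell cannot be told apart. Nothing in the labels says that the 3 arrays of a group came from separate cultures, so p-values measure the spread between these samples, which may be technical.

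Signal is given as log2 of the processed signal minus the 75th percentile of its array, called normalized signal below, so that 0 lies at that percentile. Changes are knockdown minus control on this scale. A gene was called at a limma adjusted p under 0.05 with a fold over 1.5, a log2 change of 0.585. Each array had 61.9% to 66.2% of its probes well above background, and the 75th percentile of signal ran from 718 to 754 intensity units. Nfya, the gene of the targeted A subunit, fell by 0.76 (SE 0.055, limma adjusted p = 0.0013). Nfyc fell by 1.81 (SE 0.045, limma adjusted p = 0.00033). Nfyb, the gene of the untargeted subunit, rose by 0.83 (SE 0.060, limma adjusted p = 0.0013). All 13 markers of sympathetic neuroblastoma and neurons that were looked up were well above background on all 6 arrays. Of 6 fibroblast markers 4 were, with a summed signal of 173 to 207 units in control and 189 to 222 in knockdown, against 285200 to 299600 and 262800 to 283400 for the neuroblastoma list. Single markers moved within these sums. Of the fibroblast list, Pdgfra rose by 1.29 (limma adjusted p = 0.0011) and Col1a1 was at -0.77 (limma adjusted p = 0.049). Th of the neuroblastoma list was at -0.62 (limma adjusted p = 0.0016). Astrocyte and oligodendrocyte markers summed to 263 to 294 units in control and 223 to 244 in knockdown, and immune markers to 49.9 to 65.9 and 48.6 to 54.5. Endothelial markers summed to 10300 to 11480 and 8760 to 9451, nearly all of it Kdr. Of the other endothelial markers, Pecam1 stood well above background on all 6 arrays and Cdh5 on 0 of the 6. The part of these shifts in the results below was not tested.

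All 6 arrays lay on 1 slide and were scanned in 1 pass. The first row of the slide held the 3 control arrays and knockdown replicate 1, and the second row held knockdown replicates 2 and 3. Row and group are therefore partly mixed. Values with the row as a block are given below for E2f1, Ccnd3, Ccnd1 and the listed genes that lost their call. The changes of the other tested members with this block were -0.32 (Ccnd2), 0.17 (Ccne1), 0.35 (Ccne2), 0.20 (Cdk2), -0.14 (Cdk4) and -0.042 (Rb1). The differences between cyclins are given without it. The second row holds no control array, so the size of a change with this block comes from the first row alone. It equals the change within the first row by construction, and the 2 values are not separate checks. The first row has 1 knockdown array, which had to be assumed to vary like the controls. Within it 0 of the 16514 genes were called in limma, 4891 had an unadjusted p under 0.05, and the lowest adjusted p over all genes was 0.052, so only the size of a change is given for it.

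None of the 9 tested members was called in limma, either lower or higher, and 4 of them (Ccnd3, Cdk2, Cdk4 and E2f1) had an unadjusted p under 0.05, as did 46.1% of all genes. Over all genes, 4.99% were called lower and 3.91% higher, 8.9% in either direction. At an adjusted p under 0.05 with no minimum fold, E2f1 was lower and Ccnd3 was higher, 1 member in each direction, where 15.7% of all genes were lower and 15.7% higher by the same rule. The split of calls over all genes moved with the scaling, from 824 lower and 645 higher to 1174 and 382 when arrays were scaled on their median, to 690 and 839 on the 75th percentile of probes above background, and to 584 and 278 with normexp background correction. The 9 changes ran from -0.50 for E2f1 to 0.35 for Ccne2, with a median of -0.022 against 0.0054 over all genes. Control and knockdown arrays did not overlap for 7 of the 9, 4 lower and 3 higher in knockdown, while 54.7% of all genes did not overlap.

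**Figure D1:**
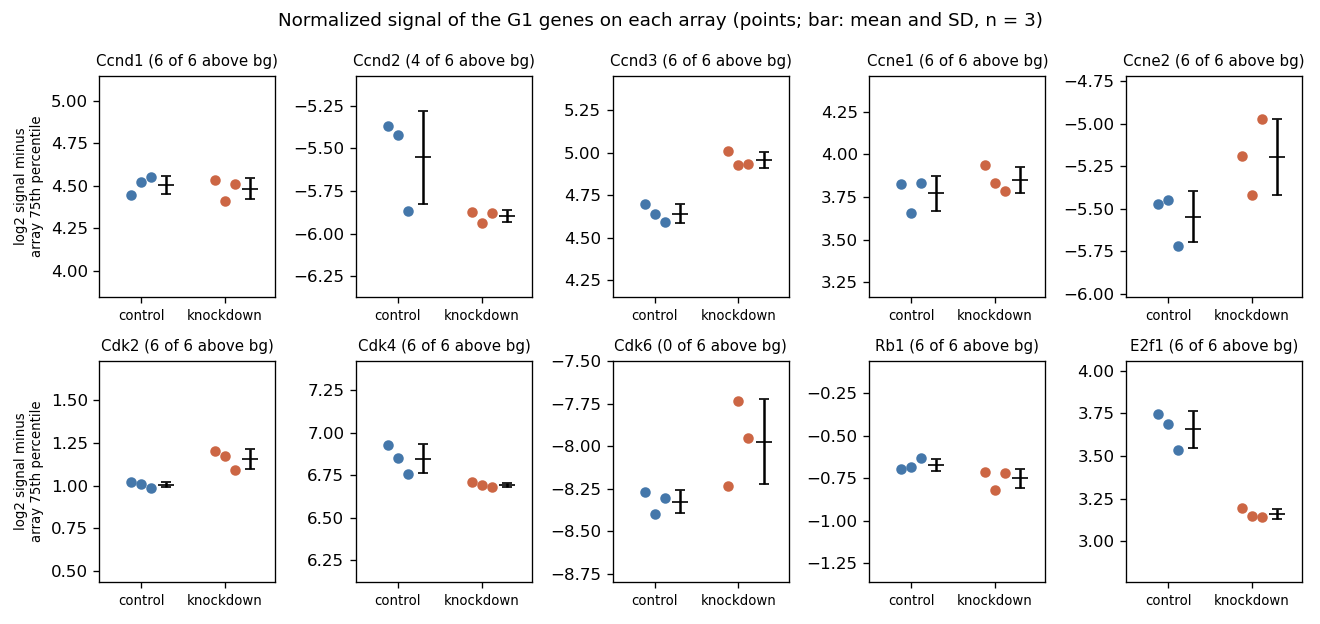
Normalized signal (log2 signal minus the 75th percentile of the array) of the 10 G1 genes on each array, 1 panel a gene, read from its brightest tested probe or, for Cdk6, from its single probe, which failed the filter on dim signal. Points are arrays in order of replicate number, bars are the mean and SD of 3 arrays, every panel spans the same height, and the count in each title is the number of arrays on which the probe was well above background (bg). E2f1 sits lower and Ccnd3 higher on all 3 knockdown arrays, while the Ccnd1 and Ccne1 arrays of both groups overlap; levels cannot be compared between panels.

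E2f1 encodes the founding E2F activator, the factor that Rb holds back until late G1. Its normalized signal was 3.75, 3.69 and 3.54 on control arrays 1 to 3 and 3.19, 3.15 and 3.14 on knockdown arrays 1 to 3. The groups did not overlap, and the lowest control array stood above the highest knockdown array by more than the spread within the knockdown group. Control arrays averaged 3.66 ± 0.11 (SD, n = 3), against a knockdown average of 3.16 ± 0.030 (SD, n = 3). The change was -0.50 (SE 0.067, 95% interval -0.67 to -0.33, limma adjusted p = 0.0072), a 1.41-fold lower signal that stayed under the minimum fold. In linear units the processed signal ran from 8740 to 10127 in control and from 6355 to 6837 in knockdown. With the slide row as a block the change was -0.46 with a limma adjusted p of 0.076, its size resting on the first row alone.

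Ccnd3, one of 3 D-type cyclins and the one best known from lymphoid cells and muscle, had 2 probes, designed for different RefSeq transcripts. The brighter probe read 4.70, 4.64 and 4.59 on the control arrays and 5.01, 4.93 and 4.93 on the knockdown arrays. Its change was 0.32 (SE 0.052, 95% interval 0.18 to 0.45, limma adjusted p = 0.013), a 1.24-fold higher signal. The other probe read 3.46, 3.51 and 3.47 in control and 3.99, 3.90 and 3.97 in knockdown. All knockdown arrays stood above all control arrays on both probes. The second probe gave a change of 0.48 (SE 0.047, 95% interval 0.36 to 0.59, limma adjusted p = 0.0028), 1.39-fold. For the brighter probe the slide row as a block gave 0.37 with a limma adjusted p of 0.060, its size again resting on the first row alone. With arrays scaled on their median, which moved the median change of all genes to -0.11, the change was 0.20 (limma adjusted p = 0.18), and without control replicate 2 it was 0.31 (limma adjusted p = 0.053).

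Ccnd1, the D-type cyclin most often amplified in tumours, read 4.45, 4.52 and 4.55 in control and 4.53, 4.41 and 4.51 in knockdown. The groups overlapped. The change was -0.022 (SE 0.056, limma adjusted p = 0.82), with a 95% interval from -0.16 to 0.12, and its sign turned under 4 other scalings or background corrections, with the slide row as a block and without knockdown replicate 2. At this precision a change of 1.5-fold in either direction lies outside the interval.

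Ccnd2, the remaining D-type cyclin, gave a processed signal of only 11.7 to 18.3 units. Its probe was well above background on all 3 control arrays and on 1 knockdown array. Normalized signal was -5.37, -5.42 and -5.87 in control and -5.87, -5.94 and -5.88 in knockdown. Control replicate 3 lay beside the knockdown arrays, and the groups were separate by a margin smaller than the spread of the knockdown arrays. The change was -0.34 (SE 0.14, 95% interval -0.71 to 0.023, limma adjusted p = 0.16). Without control replicate 3 it was -0.50 with a limma adjusted p of 0.012, and with normexp background correction it was -0.0032. That correction adds an offset of 50 units to every spot, which shrinks the change of so dim a probe by construction.

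The 3 D-type cyclins and the 2 E-type cyclins were also set against each other, as differences between changes and not between levels. The change of Ccnd1 was lower than that of Ccnd3 (difference -0.34, 95% limma interval -0.52 to -0.16). The change of Ccnd2 was lower than that of Ccnd3 (difference -0.66, 95% interval -0.97 to -0.35). Ccnd1 and Ccnd2 differed by 0.32 (95% interval -0.098 to 0.74), and Ccne1 and Ccne2 by -0.27 (95% interval -0.72 to 0.17). In exact two-sided permutation tests over the 20 assignments of the arrays, where 0.1 is the smallest p possible, these 4 pairs gave p of 0.1, 0.1, 0.4 and 0.3 in that order, or 0.2, 0.2, 0.4 and 0.4 after Benjamini-Hochberg adjustment over the 4. No pair could pass a threshold of 0.05 in this design. Both differences that involve Ccnd2 rest on a probe that was well above background on 1 knockdown array only, and with normexp background correction and quantile normalization they were -0.47 against Ccnd3 and 0.15 against Ccnd1. The difference of Ccne1 and Ccne2 was 0.040 in that setting. The normexp offset shrinks the changes of the dim Ccnd2 and Ccne2 probes by construction.

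The E-type cyclins drive Cdk2 at the start of S phase. Ccne1 read 3.82, 3.66 and 3.83 in control and 3.94, 3.83 and 3.78 in knockdown on its brighter probe. The groups overlapped, with a change of 0.080 (SE 0.074, 95% interval -0.11 to 0.27, limma adjusted p = 0.50) whose sign turned when arrays were scaled on their median. Its other probe gave 0.11 (limma adjusted p = 0.24). Ccne2 was dim, at 14.3 to 23.3 units of processed signal, though well above background on all 6 arrays. It read -5.47, -5.45 and -5.72 in control and -5.19, -5.42 and -4.97 in knockdown. Knockdown replicate 2 lay just above the highest control array, and the other knockdown arrays stood clear of them. The change was 0.35 (SE 0.14, 95% interval -0.0042 to 0.71, limma adjusted p = 0.14), and it ranged from 0.24 to 0.46 when each array was left out in turn.

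Cdk2 is the kinase partner of the E-type cyclins and later of cyclin A. Its normalized signal was 1.02, 1.01 and 0.99 on the control arrays and 1.20, 1.17 and 1.09 on the knockdown arrays. The control arrays lay close together, and every knockdown array was above them. The change was 0.15 (SE 0.048, 95% interval 0.030 to 0.27, limma adjusted p = 0.083), 1.11-fold. It was 0.034 when arrays were scaled on their median.

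Cdk4, the kinase partner of the D-type cyclins, had 3 probes that did not give the same answer. The brightest read 6.93, 6.85 and 6.76 in control and 6.71, 6.69 and 6.68 in knockdown, a change of -0.15 (SE 0.057, 95% interval -0.30 to -0.0083, limma adjusted p = 0.12). Control arrays lay above knockdown arrays on this probe, by a margin smaller than the spread of the control arrays. The other probes overlapped between groups and gave -0.016 (limma adjusted p = 0.81) and -0.0057 (limma adjusted p = 0.94). The brightest probe had a processed signal of 74283 to 91916 units, and no spot of any member was saturated.

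Cdk6, the other D-cyclin kinase, had a processed signal of 2.45, 2.18 and 2.38 units in control and 2.48, 3.37 and 2.95 in knockdown. Its probe was well above background on 0 of 6 arrays and failed the filter, so no fold is given.

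Rb1 encodes the pocket protein that the D- and E-cyclin kinases phosphorylate. Its probe was printed at 10 spots on each array, which gives a view of technical error within arrays. The SD over those spots, after outlier spots were left out, was 0.0416 to 0.0823 on the 6 arrays. Normalized signal was -0.70, -0.68 and -0.63 in control and -0.71, -0.82 and -0.72 in knockdown. All knockdown arrays lay below all control arrays, with control replicate 1 and knockdown replicate 1 closest to each other. The change was -0.079 (SE 0.050, 95% interval -0.21 to 0.048, limma adjusted p = 0.33).

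**Figure D2:**
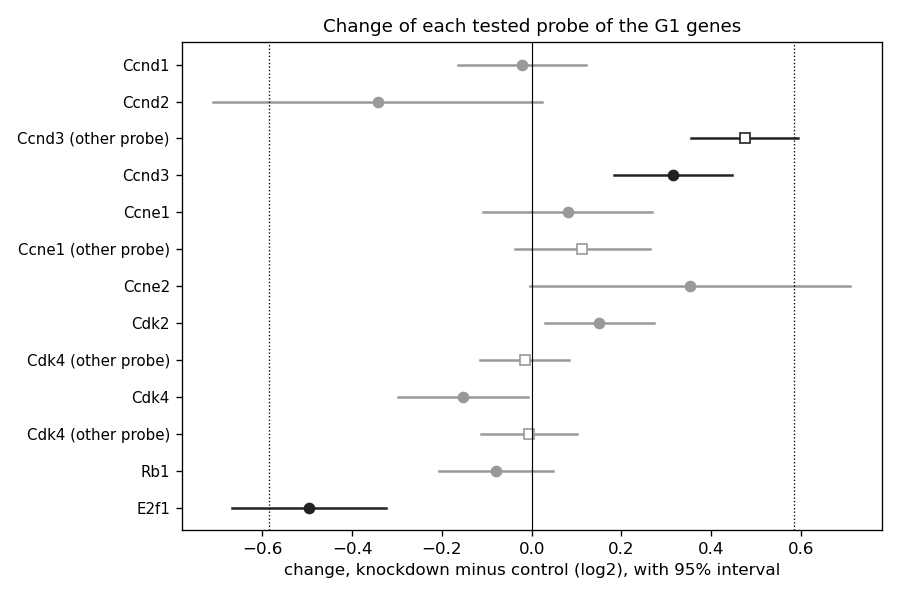
Change of each tested probe of the G1 genes, knockdown minus control on the log2 scale, with its 95% limma interval. Filled circles are the probes that stand for a gene and open squares its other probes, black marks an adjusted p under 0.05, and the dotted lines mark a 1.5-fold change. The intervals of E2f1, Cdk2 and both Ccnd3 probes lie clear of 0 and that of the brightest Cdk4 probe ends just below it, while Ccnd1 and Ccne1 straddle 0 and turn sign under another scaling.

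Because NF-Y binds CCAAT, the promoters of the members were read for it. Windows from 250 bases before to 50 bases after a transcription start, from RefSeq on GRCm38.p6, matched 6 of the 10 members in 7 windows; Ccnd1, Ccnd2, Ccne2 and Rb1 had no match and were not analysed for motifs. The transcription start of the E2f1 window lies 466 bases inside the gene and that of Cdk6 2889 bases inside, so neither window covers the outermost start. Both strands were searched for CCAAT, which 37.4% of all 32851 windows hold, for the E2F site TTTCCCGC or TTTGGCGC (1.56%), for the cell cycle element TTTGAA (17.9%) and for the E-box CACGTG (7.15%), a motif added after the data had been seen. The windows of Cdk2, Ccnd3 and Cdk4 are given here for the 250 bases before the start, because these are the tested members with a motif in their window; capitals mark the CCAAT, E2F and E-box matches.

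Cdk2 (chr10:128705052-128705301, minus strand): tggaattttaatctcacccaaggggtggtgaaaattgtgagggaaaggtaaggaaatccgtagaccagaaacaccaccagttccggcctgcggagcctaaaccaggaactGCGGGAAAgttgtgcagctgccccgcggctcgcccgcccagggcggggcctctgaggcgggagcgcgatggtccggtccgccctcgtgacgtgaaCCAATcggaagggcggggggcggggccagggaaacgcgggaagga
Ccnd3, inner start (chr17:47593217-47593466, plus strand): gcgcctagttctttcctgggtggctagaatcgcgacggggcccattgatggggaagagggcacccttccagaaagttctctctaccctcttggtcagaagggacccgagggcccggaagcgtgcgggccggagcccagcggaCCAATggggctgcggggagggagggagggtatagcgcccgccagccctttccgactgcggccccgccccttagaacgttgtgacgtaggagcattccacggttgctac
Cdk4 (chr10:127063285-127063534, plus strand): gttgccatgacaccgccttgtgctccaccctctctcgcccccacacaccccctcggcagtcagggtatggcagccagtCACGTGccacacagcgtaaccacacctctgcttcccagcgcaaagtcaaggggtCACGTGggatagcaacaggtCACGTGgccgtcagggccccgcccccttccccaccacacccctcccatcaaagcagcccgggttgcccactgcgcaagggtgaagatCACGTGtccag

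Cdk2 held 1 CCAAT box, starting at position -45 counted from the transcription start, and 1 E2F site at -140 that reads GCGGGAAA as printed. The outer start of Ccnd3 (chr17:47504801-47505050, plus strand) held none of the 4 motifs, while an inner start 88416 bases inside the gene held a CCAAT box at -108. Cdk4 held 4 E-boxes, at -172, -118, -98 and -11, and no CCAAT. The matches did not overlap each other. The window of Ccne1 (chr7:38107491-38107740, minus strand) held none of the 4 motifs. The window of E2f1 also held none of the 4 motifs, and that of Cdk6 held 1 E-box, at -220, and no CCAAT. Cdk2 and Ccnd3, the members with a CCAAT match, had changes of 0.15 and 0.32. The tested members with a window but no CCAAT, Ccne1, Cdk4 and E2f1, were at 0.080, -0.15 and -0.50. Of all windows, 37.4% hold CCAAT. A match is only a run of letters, and no binding was measured on these arrays.

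The CDK inhibitors restrain the kinases above. Of 7 listed inhibitors, all tested, 1 was called lower and 0 higher in limma, or 14.3% against 8.9% of all genes. Their median change was 0.30 against 0.0054 over all genes. That median rests on Cdkn2b, at 0.64 (limma adjusted p = 0.42) from a probe well above background on 0 of the 6 arrays, and over the other 6 inhibitors it was 0.063. Cdkn1a, the p21 gene and a well-known target of p53, fell by 1.03 (SE 0.057, limma adjusted p = 0.00068), from 2.21 to 1.18. Its second probe, well above background on 0 of the 6 arrays, gave 0.53 (limma adjusted p = 0.57), and the mean of both probes was -0.25 and not called. Cdkn1b, the p27 gene, was higher by 0.34 (limma adjusted p = 0.0059) without reaching the minimum fold. Named after their values were seen, Cdkn2c, an inhibitor of Cdk4 and Cdk6, was at 0.40 (limma adjusted p = 0.0087) and Cdkn2d, of the same family, at -0.22 (limma adjusted p = 0.020).

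Of 16 relatives of Rb, E2F partners and subunits of the MuvB complex, which pairs with Rb relatives to silence cell cycle genes, 0 were called in limma in either direction and 7 had an unadjusted p under 0.05. These are 0% and 43.8% of the list, against 8.9% and 46.1% of all genes. The median change of the list was 0.079. E2f6, a repressor E2F that does not bind Rb, was at 0.21 (limma adjusted p = 0.041). E2f5, which pairs with the Rb relatives, was at -0.37 (limma adjusted p = 0.046). The MuvB genes Lin52 and Lin54, named after their values were seen, were both at 0.24 (limma adjusted p = 0.049 each), and the other probes of Lin52 gave 0.58 and 0.54. None of these 4 reached the minimum fold.

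Of 16 genes for CDK activation and cyclin turnover, 15 were tested, 1 was called lower and 1 higher, and the median change was 0.037. Those called were 13.3% of the tested, against 8.9% of all genes. Cks1b, a small CDK-binding protein that works with the Skp2 ubiquitin ligase on p27, fell by 1.06 (limma adjusted p = 0.00053). Its other probe fell by 1.13. Fbxw7, the ubiquitin ligase subunit that marks cyclin E for destruction, rose by 0.65 (limma adjusted p = 0.0017), and its other probe was at 0.48. With median scaling it was at 0.54 and not called. Skp2 itself was not analysed here, as no probe was matched to it.

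Of 31 E2F target genes of G1 and S phase, 1 was called lower, 0 higher and 30 not called in limma, with 18 at an unadjusted p under 0.05 and a median change of -0.042. Those called were 3.23%, against 8.9% of all genes, and 58.1% had that unadjusted p, against 46.1% of all genes. Rrm2, the small subunit of ribonucleotide reductase, fell by 0.62 (limma adjusted p = 0.0011), close to the minimum fold. It was -0.53 to -0.58 and not called under quantile normalization, the 75th percentile of probes above background, both normexp settings and the slide row as a block. Gins1, a subunit gene of the active replicative helicase, was at -0.50 (limma adjusted p = 0.0062) and not called. At an adjusted p under 0.05 alone, 10 of the 31 were lower and 4 higher, where 15.7% of all genes were lower and 15.7% higher. The 4 were Dbf4, Cdt1, Slbp and Mcm10, at 0.35, 0.30, 0.30 and 0.20, named after their values were seen.

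Among 13 cyclins, kinases, phosphatases and transcription factors of S, G2 and M phase, 2 were called lower and 0 higher in limma, 6 had an unadjusted p under 0.05, and the median change was -0.036. Those called were 15.4%, against 8.9% of all genes, and 46.2% had that unadjusted p, against 46.1% of all genes. Aurkb, the kinase of the chromosomal passenger complex, fell by 1.70 (limma adjusted p = 0.00055). With normexp background correction it fell by 0.93 or 0.88 and was still called. Its normalized signal was only -2.46 in control and -4.16 in knockdown, and the normexp offset shrinks changes of dim probes by construction. Cdc25c, the phosphatase that activates Cdk1 at entry into mitosis, fell by 1.09 (limma adjusted p = 0.00038).

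Of 12 transcription factors known to act upstream of the D-type cyclins, 2 were called lower and 1 higher, with a median change of -0.12. Those called were 25% of the list, against 8.9% of all genes. Egr1, an immediate early factor, fell by 1.16 (limma adjusted p = 0.00076). Mycn, the MYC gene amplified in neuroblastoma, fell by 0.69 (limma adjusted p = 0.0049). Fos, the partner of Jun in AP-1, rose by 0.68 (limma adjusted p = 0.0014), and was at 0.57 to 0.58 and not called with median scaling and both normexp settings.

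Of 19 cyclins and CDKs outside the G1 core, 3 were called lower and 1 higher, with a median change of 0.0029. Those called were 21.1% of the list, against 8.9% of all genes. The count reads each gene from its brightest probe. Other probes of Ccnc (-0.64, limma adjusted p = 0.0095) and Cdk5r1 (0.59, limma adjusted p = 0.0017), named after their values were seen, passed the same thresholds. Cdk8, a kinase of the Mediator complex, fell by 1.13 (limma adjusted p = 0.00056), and its other probes gave -1.20 and -0.57. Ccny, a membrane-bound cyclin, fell by 0.71 (limma adjusted p = 0.0057). Ccng2, an unconventional cyclin, fell by 0.70 (limma adjusted p = 0.019), a call lost when control replicate 1 or 3 or knockdown replicate 2 or 3 was left out, with a limma adjusted p of 0.053 to 0.069. Ccnt2, a cyclin partner of Cdk9 in transcription elongation, rose by 0.63 (limma adjusted p = 0.0036). With normexp background correction none of Ccny (-0.37 and -0.32), Ccng2 (-0.39 and -0.33) and Ccnt2 (0.38 and 0.42) was called, and Ccnt2 was also not called with quantile normalization (0.58) or median scaling (0.51). The probes of Ccny, Ccng2 and Ccnt2 were dim, and the normexp offset shrinks the changes of such probes by construction. With the slide row as a block, Mycn, Ccny and Ccng2 were no longer called (limma adjusted p = 0.055, 0.065 and 0.15).

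**Figure D3:**
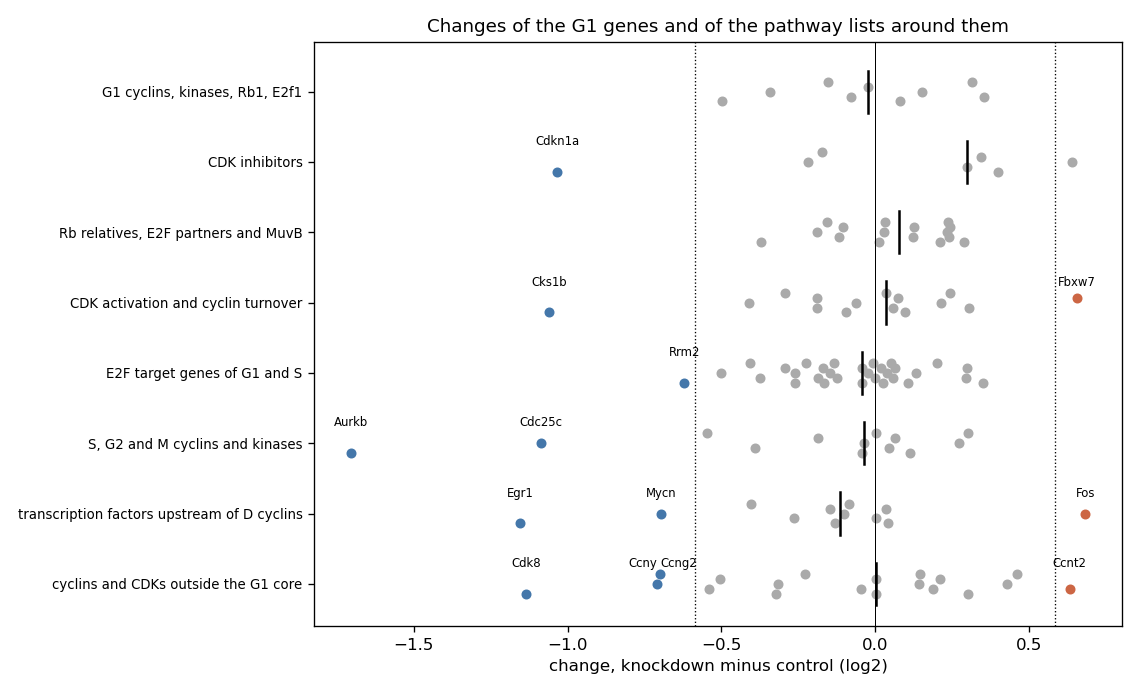
Changes (knockdown minus control, log2) of the tested G1 genes and of the tested genes of 7 lists around them, 1 row a list and 1 point a gene, with vertical jitter only to separate points. Blue points were called lower and orange points higher, grey points were not called, black bars are medians, and dotted lines mark a 1.5-fold change. No G1 gene lies past the dotted lines, while Aurkb, at -1.70, lies farthest out here. With normexp background correction Aurkb was at -0.93 or -0.88, behind Cdk8, Egr1, Cdc25c, Cdkn1a and Cks1b. The offset of that correction shrinks the changes of dim probes, such as that of Aurkb, by construction. The row of S, G2 and M genes also holds phosphatases and transcription factors. The grey point at 0.64 is Cdkn2b, whose probe stood well above background on 0 of the 6 arrays.

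The changes of the members were recomputed under 24 other settings. The settings without a minimum fold and with a minimum fold of 2 alter only the threshold for a call, so they repeat the main changes and adjusted p. E2f1 stayed between -0.61 and -0.38, with an adjusted p under 0.05 in 22 of the 24, and was called in 2. Ccnd3 stayed between 0.20 and 0.42, with an adjusted p under 0.05 in 20 of the 24, and was called in 1. That call, and 1 of those of E2f1, came from leaving out the minimum fold. Rb1 ranged from -0.20 to -0.015 and Ccnd1 from -0.14 to 0.097, neither with an adjusted p under 0.05 in any setting.

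**Figure D4:**
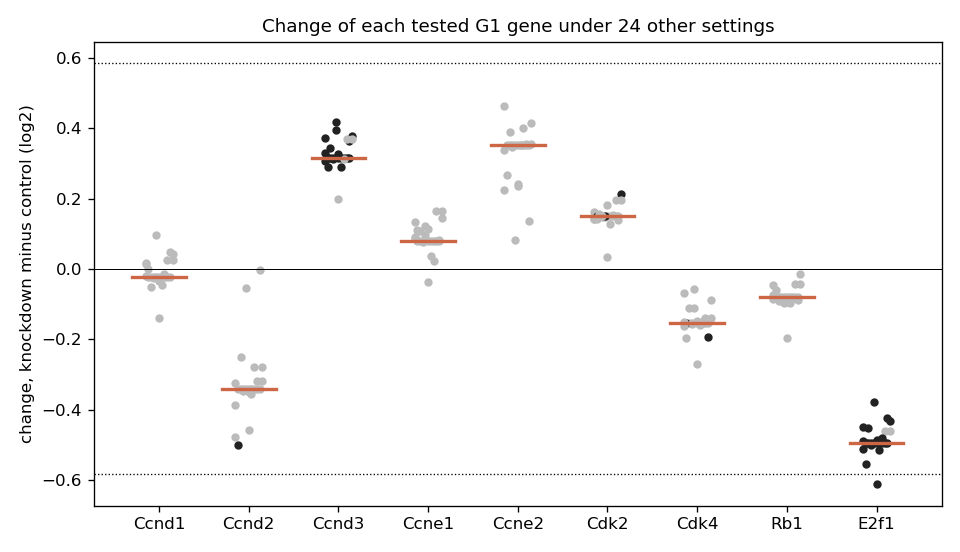
Change of each tested G1 gene (knockdown minus control, log2) under 24 other settings of scaling, background correction, filter, model, threshold and left-out arrays. Orange bars are the reported values, points are other settings, black points have an adjusted p under 0.05, and dotted lines mark a 1.5-fold change. E2f1 lies between -0.61 and -0.38 and Ccnd3 between 0.20 and 0.42, while points of Ccnd1 and Ccne1 lie on both sides of 0.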

How the data were processed

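Total RNA of transfected N2a cells was labelled by the authors with a one-colour Agilent kit and hybridised to mouse arrays annotated on mm9. Images were read by the authors with Feature Extraction (version 10.10.1.1 of Agilent's software). Each deposited scanner table lists a background-corrected intensity per spot with flags for outliers, saturation and signal well above background. A deposited series matrix holds the same arrays as log2 values with the scale not given in the sources used here. Over 43557 single-spot probes its differences between arrays matched log2 intensity minus the 75th percentile to within 0.00761, and its column medians were 0.0143, 0.0182 and -0.0117 in control and 0.0139, 0.00513 and -0.00718 in knockdown; its centring of each probe stays unknown, and it served as an alternative only. Per the paper's methods, analysis was done in GeneSpring with low signals set aside.

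Outlier and control spots were left out. Log2 processed signal, less the array's 75th percentile, was averaged over the spots of a probe. Of 55681 probes 245 lacked a value, and the 42208 at or above the 20th percentile of their array on all arrays of a group were tested. Of 26392 probes with a curated mRNA accession, 25869 were named through RefSeq (GRCm38.p6), and a gene was read from its brightest tested probe. Groups came from the sample labels and were set against each other by lmFit and eBayes of limma (version 3.58.1, under R 4.3.3), two-sided and without covariates. P-values were adjusted by Benjamini-Hochberg over every probe tested. The fit was tested on simulated data. The number of arrays, 3 a group, limits the precision, and no pair of arrays was identical. Same-numbered arrays did not deviate together (r = 0.016, 0.066 and 0.0023), so the numbers were not used as pairs.

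The members and the gene lists were chosen with earlier results of these data known. Named were all members, the NF-Y subunit genes and, of each list, up to 4 called genes of smallest adjusted p in each direction, or the 2 of smallest adjusted p where fewer were called; other names are marked. A gene of the E2F target list is not reported here. Genes most like a member were to be named only for called members, so none were. Cdk4 and Cdk6 could not be set against each other, since Cdk6 was not tested. Alternatives were other scalings, normexp background correction (offset 50, on median spot signals), the series matrix, other filters, models and thresholds, blocks for slide row and replicate number, leaving out each array and averaging the probes of a gene; the first slide row alone was added after the data had been seen.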

Additional observations from a re-analysis of the deposited data

How the results depend on the processing

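The changes of E2f1, Ccnd3, Ccnd2, Ccne2, Cdk2, Cdk4 and Rb1 kept their direction under the 24 alternatives run. The change of Ccnd1 turned to 0.016 with quantile normalization, 0.042 with the 75th percentile of probes above background and 0.097 with normexp and quantile normalization. It was 0.049 with normexp and the 75th percentile and 0.026 with the slide row as a block. The first slide row alone gave the same 0.026 by construction. Leaving out each array in turn moved the change of Ccnd1 between -0.052 and 0.015. The change of Ccne1 turned to -0.037 with median scaling, and the difference of Ccne1 and Ccne2 to 0.040 with normexp and quantile normalization. E2f1 was called with median scaling (-0.61), which left 1 member called lower. With no minimum fold E2f1 (-0.50) and Ccnd3 (0.32) were both called, so 1 member was lower and 1 higher, and over all genes 2591 were lower and 2595 higher. A minimum fold of 2 left 286 lower and 182 higher. The count of all genes called higher was 382 with median scaling, 286 with normexp and quantile normalization and 278 with normexp and the 75th percentile. In the first slide row alone, with 1 knockdown array assumed to vary like the controls, 0 genes were called lower and 0 higher.

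With the replicate number as a block (replicate block), 764 genes were called lower and 518 higher, and 0 members in either direction. The cause of these shifts was not tested. Signal over background limits Ccnd2, Ccne2 and Cdk6, whose probes lay near the floor of the arrays: the normexp correction took the change of Ccnd2 from -0.34 to -0.0032 and that of Ccne2 from 0.35 to 0.14. Over all members and the listed genes checked, 1454 recomputed changes kept their direction and their side of the threshold. Another 51 were no longer called, 47 became called and 8 turned sign. The listed genes checked, with the NF-Y subunit genes, were those with a limma adjusted p under 0.05 in the main analysis. Leaving out the minimum fold therefore called all of them by construction. Raising the minimum fold could only remove calls, and in the first slide row alone no gene was called. The tally includes these built-in shifts, so it is not a measure of stability.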

Other observations

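Among the E2F target genes, those of the replicative helicase did not all hold the same sign. Mcm2 to Mcm7 encode its ring, and their changes lay between -0.0070 for Mcm4 and 0.13 for Mcm7, with limma adjusted p from 0.098 to 0.92. Of genes whose products help turn the ring into an active helicase, Gins1 was at -0.50 (SE 0.064, limma adjusted p = 0.0062), Cdc45 at -0.41 (SE 0.055, limma adjusted p = 0.0069) and Gins2 at -0.38 (SE 0.049, limma adjusted p = 0.0066), whereas Dbf4 was at 0.35 (SE 0.054, limma adjusted p = 0.011), Mcm10 at 0.20 (SE 0.045, limma adjusted p = 0.033) and Cdc7 at 0.037 (SE 0.072, limma adjusted p = 0.75). None of these was called at the minimum fold. The loading factor gene Cdt1 was at 0.30 (SE 0.048, limma adjusted p = 0.012) and Cdc6, which acts beside it, at -0.29 (SE 0.050, limma adjusted p = 0.014). The other probe of Cdc6 gave -0.53 (limma adjusted p = 0.0025). These genes were singled out after their values were seen, and no test of the difference between them was run.

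Of the mitotic genes, the cyclin genes Ccnb2 and Ccnb1 were at -0.55 (limma adjusted p = 0.0022) and -0.39 (limma adjusted p = 0.010), while the other probes of Ccnb1 gave -0.12 and -0.077. Foxm1, a factor that drives mitotic genes, was at 0.27 (limma adjusted p = 0.010) and Aurka, a kinase of the spindle poles, at 0.30 (limma adjusted p = 0.013). These values too were picked out after they were seen, and none was called.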
